A study of Mus musculus with 12 samples.

Results

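Respiratory complex I is described here through its nuclear subunit genes in mouse calf muscle. Its members are the protein-coding genes whose symbols start with Nduf, one of the letters a, b, c, s or v, and a digit; the rule found 37 of 54532 genes in the table, of which 22046 are protein-coding. The choice used names and no measured value. All 37 had a mean level high enough to be tested. The name rule takes in Ndufa4, whose product belongs to complex IV rather than complex I, and its paralogue Ndufa4l2. It leaves out Ndufab1, the acyl carrier protein of complex I, the subunits encoded by mitochondrial DNA, and the gene listed as Ndufb1-ps, which the table types as a non-coding RNA.

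RNA came from the gastrocnemius, a large muscle of the calf, of female ICR SCID mice, an immunodeficient strain. NTV mice had no tumour and were given vehicle, TV mice had a subcutaneous HT1080 tumour and were given vehicle, and TL mice had the same tumour and were given oral selpercatinib, which inhibits the kinase RET, at 30 mg/kg once a day over 19 days by gavage. HT1080 is a human fibrosarcoma cell line, so every tumour derives from 1 line and grew in a host without normal lymphocytes. Each group had 4 libraries, which the study calls biological replicates. The sources used here give neither the age of the mice nor a genotype beyond the strain.

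Complex I passes electrons from NADH to ubiquinone and pumps protons across the inner mitochondrial membrane, which drives ATP synthesis. It is L-shaped: a matrix arm holds the flavin and a chain of iron-sulfur clusters, and a membrane arm holds the proton channels. The matrix arm is divided into an N module, which oxidises NADH, and a Q module, which hands electrons to ubiquinone. The nuclear genes encode the catalytic core of the matrix arm and many accessory subunits, while the core of the membrane arm is made inside the mitochondrion. In skeletal muscle, oxidative fibres hold more mitochondria, and so more of this complex, than glycolytic fibres.

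Levels are FPKM, read counts scaled for gene length and library, and are given in the order of replicates 2, 3, 5 and 6 for NTV, 3, 4, 6 and 8 for TV, and 1, 4, 5 and 7 for TL. Reads assigned to genes ranged from 14939830 to 23580603 per library. Changes are log2 differences of FPKM + 0.5 ± SE from limma, with Benjamini-Hochberg adjustment over 12754 tested genes, and a gene is called at an adjusted p under 0.05. Of 8 skeletal muscle genes, 7 were at 2165 FPKM or more in every library, while the table lists Tnnc2 at 0.299 to 2.03 FPKM. In bulk tissue, fewer cells of a type and less RNA per cell cannot be told apart. Reads of the mitochondrial genome made up 11.6% to 13.5% of all reads in NTV, 5.08% to 7.70% in TV and 6.04% to 13.9% in TL. Within TL, replicates 1 and 5 were at 10.1% and 13.9%, and replicates 4 and 7 at 6.04% and 6.55%. The brown adipocyte gene Ucp1 was at 53.4 FPKM in NTV replicate 5, 58.3 in TL replicate 1 and 3.97 in TL replicate 5, and at or below 1.06 in the other libraries, so counts of called members, and calls that change, are also given without these 3 libraries. In TL that leaves only replicates 4 and 7.

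In muscle without a tumour the members spanned a wide range of levels. Among the highest means were Ndufa4 at 283 ± 39 FPKM (SD, n = 4) and Ndufb11, a membrane-arm subunit encoded on the X chromosome, at 249 ± 41.2, which differed by less than 1 SD. After Ndufb11 came Ndufb10, at 220.2 ± 23.6 FPKM, and from there the means declined in small steps to Ndufb7, an accessory subunit of the membrane arm, at 28.8 ± 2.91. Only Ndufa4l2, at 8.16 ± 1.06 FPKM, and Ndufb2, at 4.34 ± 0.932, lay below that, and both gaps were larger than the SDs. The FPKM of Ndufb2 rests on a deposited gene length of 5628 bases, second among the members to the 8086 bases of Ndufs1, while the shortest, Ndufa1, has 419. The fewest reads behind a single value were the 28 of Ndufa4l2, on which counting error mainly bears.

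TV muscle had less RNA of many complex I members than NTV muscle. Of the 37 members, 16 fell, 1 rose and 20 were not called, where 11.5% of all tested genes were called lower and 13.8% higher. The median change over the 37 was -0.42, against 0.02 over all tested genes. Estimates were below 0 for 33 members, while 48.2% of all tested genes had an estimate below 0. The 4 TV libraries lay wholly below the 4 NTV libraries for 17 members and wholly above them for 1, against 12.7% and 14.4% of all tested genes. The FPKM summed over the members was 4536 ± 527 in NTV (SD, n = 4), 3516 ± 501 in TV and 3740 ± 596 in TL.

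**Figure D1:**
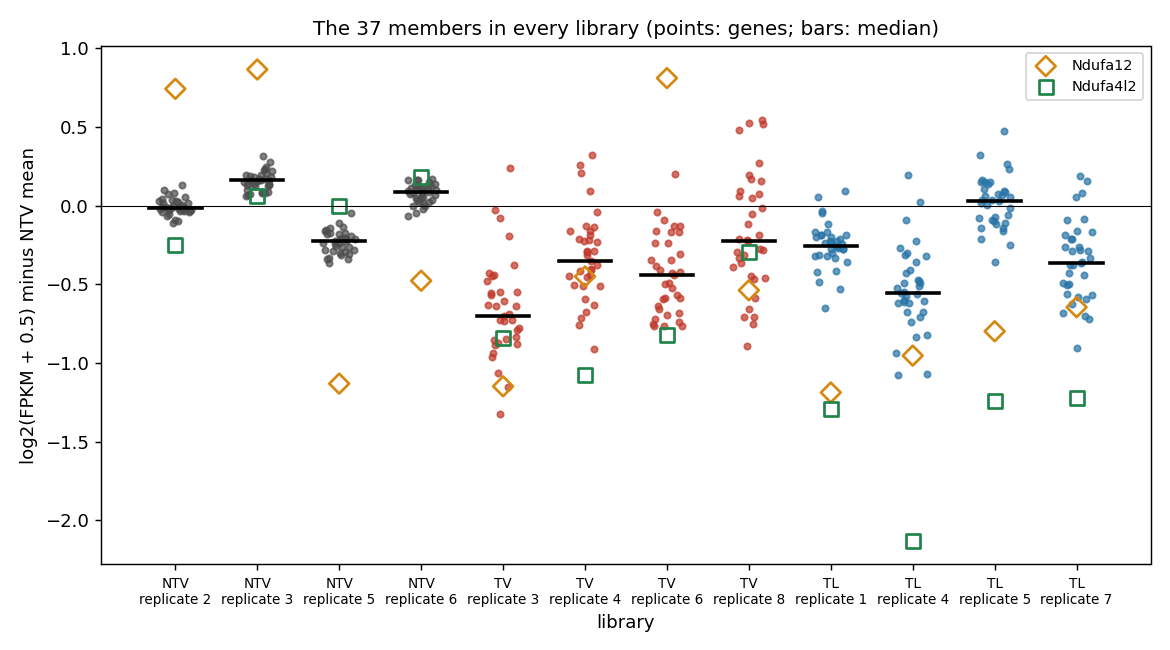
Each point is 1 of the 37 genes in 1 library (x axis), plotted as its log2(FPKM + 0.5) minus the mean of that value in NTV (y axis), and black bars mark the median of the 37 genes; diamonds and squares mark Ndufa12 and Ndufa4l2. The medians lie between -0.22 and 0.16 in NTV, between -0.70 and -0.22 in TV and between -0.55 and 0.03 in TL.

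The catalytic core of the matrix arm has 7 nuclear-encoded subunits, of which 3 fell in TV and none rose. Of all tested genes, 11.5% were called lower and 13.8% higher. Ndufs1 (ENSMUSG00000025968, chr1:63143596-63176833 on the minus strand, build mm10) encodes the largest core subunit, which carries several iron-sulfur clusters. It stood at 58.4, 63.8, 54.5 and 63.8 FPKM in NTV, 23.7, 35.3, 35.4 and 32.1 in TV and 48, 33.7, 55.6 and 40.5 in TL. Every TV library was below every NTV library, and TL lay between, with replicates 1 and 5 near or within the NTV range and replicate 4 within the TV range. The TV mean was 0.526 of the NTV mean, and the log2 change was -0.93 ± 0.16 (adjusted p = 0.00291, limma), the largest fall of any member.

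Ndufs8 (ENSMUSG00000059734, chr19:3908870-3912717 on the minus strand) encodes the core subunit that bridges the clusters between the N module and the ubiquinone site. Its levels were 172, 203, 156 and 196 FPKM in NTV, 81, 110.2, 108 and 107 in TV and 135, 85.5, 152 and 109 in TL. No TV library reached the NTV range, and 3 of the 4 TV libraries were within 3 FPKM of each other. It fell in TV, with a change of -0.84 ± 0.18 (adjusted p = 0.0063, limma). Ndufv2, which holds an iron-sulfur cluster beside the flavin, was at 171, 195, 149 and 187 FPKM in NTV, 112, 142, 137 and 127 in TV and 148, 131, 184 and 143 in TL. Its groups NTV and TV did not overlap, and the fall was smaller, at -0.43 ± 0.13 (adjusted p = 0.0308, limma).

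Core genes without a call included Ndufv1, Ndufs3 and Ndufs7. Ndufv1, which binds the flavin and takes electrons from NADH, was at 152, 174, 131 and 168 FPKM in NTV, 86, 139, 125 and 137 in TV and 152, 104, 167 and 109.6 in TL, with TV replicate 3 well below the other TV libraries. Ndufs3, a core subunit of the Q module, was at 124, 134, 106 and 127 FPKM in NTV, 83.3, 105, 109 and 113 in TV and 109, 104, 127 and 105 in TL. Ndufs7, which holds the last cluster before ubiquinone, was at 169.7, 194, 146 and 184 FPKM in NTV, 118, 158, 147 and 198 in TV and 150.2, 140.0, 191 and 152 in TL. NTV and TV overlapped for these 3 genes, and the log2 differences were -0.38, -0.26 and -0.18.

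Of the 9 accessory subunits of the matrix arm, 1 fell and 1 rose, leaving 7 uncalled, and the median was -0.25; these shares are near those of all tested genes, 11.5% lower and 13.8% higher. With core and accessory genes together, 2 of 10 genes of the N module fell, both of them core genes, and 1 rose, and 2 of 6 genes of the Q module fell, Ndufs8 of the core and Ndufa9. Ndufa9, a reductase-like subunit near the ubiquinone site, was at 127, 143, 121 and 151 FPKM in NTV, 68.9, 95.1, 89.6 and 89.6 in TV and 118, 80.8, 127 and 90.8 in TL. It fell in TV, with a change of -0.66 ± 0.16 (adjusted p = 0.0114, limma), with no overlap between NTV and TV. Ndufa5, another Q-module subunit, Ndufs4, whose loss causes a Leigh-like disease in mice, the zinc-binding Ndufs6 and the flavoprotein-arm subunit Ndufv3 had estimates of -0.25, -0.38, -0.21 and -0.30 and were not called.

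Ndufa7 (ENSMUSG00000041881, chr17:33824591-33838316 on the plus strand), an accessory subunit of the matrix arm, was the 1 member that rose. It was at 67.8, 76.4, 57.6 and 71.7 FPKM in NTV, 80.4, 85.1, 78.3 and 99.3 in TV and 70.6, 77.8, 75.7 and 76 in TL. All TV libraries were above all NTV libraries, although the highest NTV and lowest TV values were within 2 FPKM of each other, and all TL libraries were below all TV libraries. The change was 0.33 ± 0.11 (adjusted p = 0.0441, limma), and the call was lost with any of 6 of the 8 NTV and TV libraries left out (adjusted p up to 0.114) and under each of 4 other scalings between libraries. It was also lost with no filter on low values, with NTV and TV fitted alone, and once the 3 libraries high in Ucp1 were left out (0.146). Ndufa6, a subunit of the LYR family that docks an acyl carrier protein, and Ndufa2, which has a thioredoxin-like fold, had estimates of 0.15 and 0.14, neither of them called. Together with Ndufa3 of the membrane arm, at 0.09 but below 0 under 3 of the other scalings, these were the members with estimates above 0.

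In the proximal part of the membrane arm 4 of 8 genes fell, against 11.5% of all tested genes, with a median of -0.44. Ndufc1 (ENSMUSG00000037152, chr3:51404677-51408988 on the minus strand) was at 94.7, 102, 73.6 and 97.1 FPKM in NTV, 43.5, 48.2, 56.8 and 65.9 in TV and 57.9, 43.3, 78.6 and 60.4 in TL. Ndufc2 (ENSMUSG00000030647, chr7:97400003-97407802 on the plus strand), its neighbour in the complex, was at 150.4, 156, 123 and 166 FPKM in NTV, 77.2, 97.8, 87 and 90.6 in TV and 105, 92.5, 134 and 116 in TL. For both genes every TV library was below every NTV library, and the changes were -0.78 ± 0.18 and -0.75 ± 0.13 (adjusted p = 0.0109 and 0.00322, limma). Ndufa8, an intermembrane-space subunit, and Ndufa10, which resembles nucleoside kinases, fell, with changes of -0.55 and -0.46. Ndufa1 (-0.42), Ndufa13 (-0.40), also known as GRIM-19, Ndufs5 (-0.15), an intermembrane-space subunit, and Ndufa3 were not called.

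Of the 10 Ndufb genes, which encode the distal part of the membrane arm, 6 fell, none rose, and all 10 estimates were below 0, with a median of -0.50. Among all tested genes 11.5% were called lower and 48.2% had an estimate below 0. Ndufb5 (ENSMUSG00000027673, chr3:32736990-32751566 on the plus strand) was at 58, 64.4, 52.2 and 59.9 FPKM in NTV, 33.6, 37.6, 35.3 and 35.7 in TV and 47.1, 35.6, 52.9 and 39 in TL. The TV libraries were tightly grouped, 35.6 ± 1.63 FPKM (SD, n = 4), and far below NTV, and the change was -0.71 ± 0.12 (adjusted p = 0.00265, limma). Ndufb10 (ENSMUSG00000040048, chr17:24722060-24724478 on the minus strand), an accessory subunit with disulfide bonds that faces the intermembrane space, was at 219, 233, 188 and 241 FPKM in NTV, 118, 137, 129 and 161 in TV and 152, 114, 171 and 117 in TL. Its NTV libraries were above every tumour-bearing library, treated or not, and its TV change was -0.69 ± 0.15 (adjusted p = 0.00754, limma). Ndufb2 was at 4.6, 5.43, 3.2 and 4.13 FPKM in NTV, 2.57, 2.85, 2.3 and 2.52 in TV and 3.66, 2.93, 4.37 and 3.77 in TL. It fell in TV, with a change of -0.64 ± 0.15 (adjusted p = 0.00888, limma), and its TL libraries were all above its TV libraries.

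The remaining Ndufb genes had smaller estimates. Ndufb6, Ndufb8 and Ndufb3 fell, with changes of -0.51, -0.51 and -0.49, and adjusted p of 0.0187, 0.0463 and 0.0451 from limma. Ndufb9, another LYR-family subunit, missed the threshold narrowly at -0.44 ± 0.15 (adjusted p = 0.0505, limma) and passed it under each of the 4 other scalings. Ndufb7 (-0.41), Ndufb11 (-0.19) and Ndufb4 (-0.16) were not called. Ndufa11, a membrane-arm subunit that the plot of changes places with this group, fell, with a change of -0.53 ± 0.16 (adjusted p = 0.0347, limma).

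**Figure D2:**
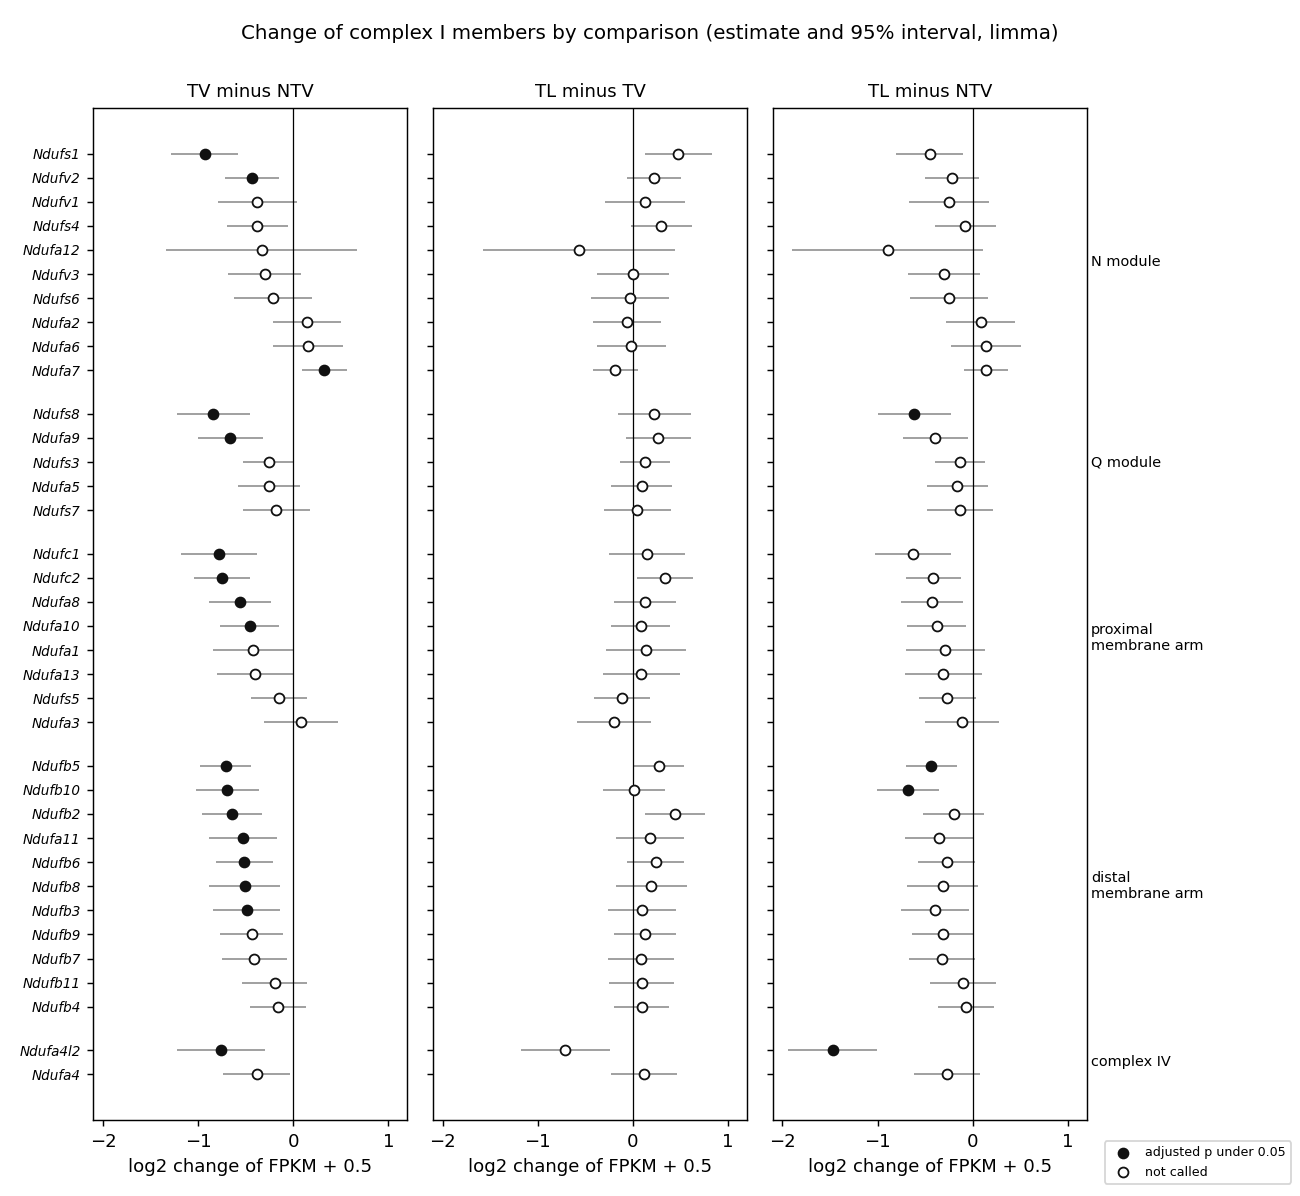
Each labelled row is a member, grouped by place in the complex, and each panel is 1 comparison; points are log2 changes of FPKM + 0.5 (x axis), lines are 95% intervals, and filled points have an adjusted p under 0.05. Filled points number 17 in TV minus NTV, 0 in TL minus TV and 4 in TL minus NTV, where Ndufa4l2 lies farthest from 0.

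The rule also took in Ndufa4 and its paralogue Ndufa4l2, which the plot of changes places under complex IV. Ndufa4, a subunit of cytochrome c oxidase, was at 286, 319.9, 228 and 297 FPKM in NTV, 182, 230.3, 212 and 241 in TV and 228, 185, 299 and 233 in TL. Its groups overlapped, and it was not called in TV (-0.39 ± 0.16, adjusted p = 0.094, limma). Ndufa4l2 (ENSMUSG00000040280, chr10:127514967-127517154 on the plus strand), a paralogue known as a target of hypoxia-inducible factors, was at 6.75, 8.49, 8.09 and 9.29 FPKM in NTV, 4.31, 3.58, 4.37 and 6.52 in TV and 3.02, 1.47, 3.14 and 3.19 in TL. All TV libraries were below NTV and all TL libraries were below TV. The change was -0.76 ± 0.21 for TV against NTV (adjusted p = 0.0243, limma), -0.71 ± 0.21 for TL against TV (0.154, not called) and -1.47 ± 0.21 for TL against NTV (0.00394). The call in TV was lost without any 1 of NTV replicates 3, 5 or 6 or TV replicates 3 or 4, with an adjusted p of up to 0.0694, with no filter on low values, and once the 3 libraries high in Ucp1 were left out (0.0634). The call in TL against NTV was kept with any single NTV or TL library left out, with no filter and without the 3 libraries high in Ucp1.

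**Figure D3:**
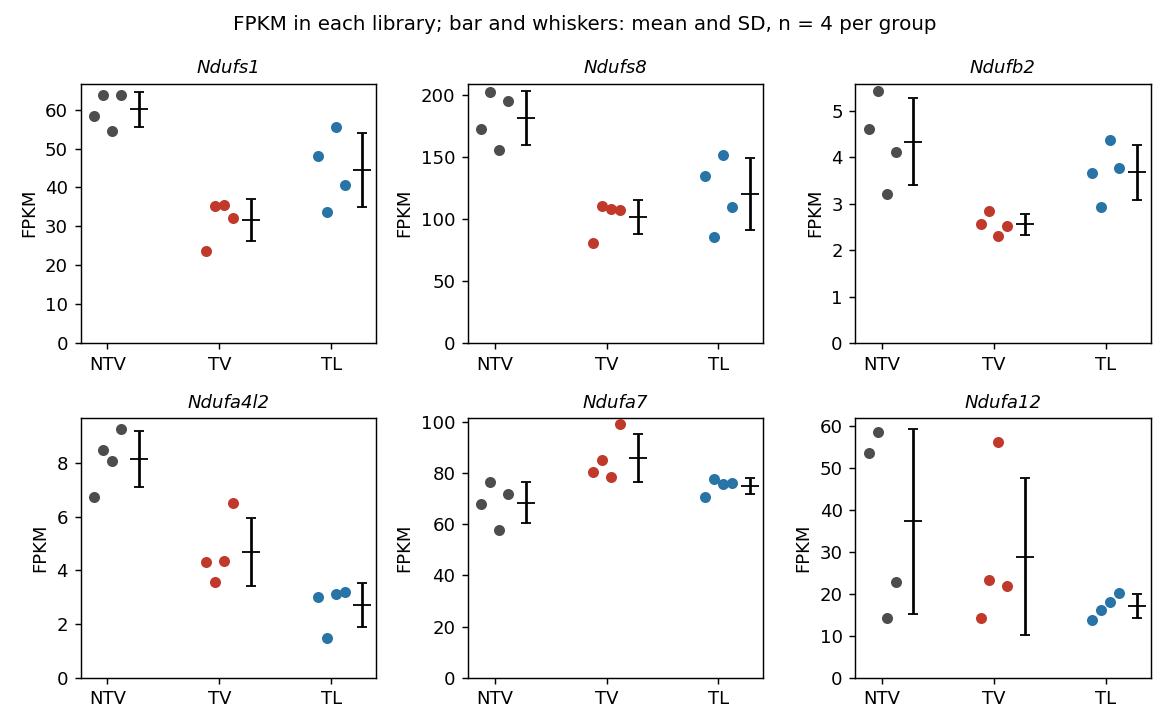
Each panel is 1 gene, with FPKM (y axis, from 0) in the 4 libraries of NTV, TV and TL as points and the mean and SD as a bar with whiskers. Ndufs1 and Ndufs8 have TV libraries wholly below NTV, Ndufa4l2 is lowest in TL, Ndufa7 is highest in TV, and Ndufa12 has 3 libraries at 53.7 to 58.5 FPKM and 9 at 13.7 to 23.2.

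How many members were called in TV depended on single libraries and on the scaling. It was 8 lower without NTV replicate 3 and 8 without TV replicate 3, 9 without NTV replicate 6, and 20 without TV replicate 8, and with an equal total per library it was 25 lower and 0 higher. The members called lower with each single library left out and in every other setting tried were Ndufs1, Ndufs8, Ndufc1, Ndufc2, Ndufb5, Ndufb10, Ndufa9 and Ndufb2. Ndufv2, Ndufa8, Ndufa10, Ndufa11, Ndufb3, Ndufb6, Ndufb8 and Ndufa4l2 each lost the call without NTV replicate 3 and also without TV replicate 3. Of the 8 fits with 1 library left out, the call was lost in 7 for Ndufb3 and in 6 for Ndufa10, Ndufa11 and Ndufb8. It was lost in 5 for Ndufv2 and Ndufa4l2, in 3 for Ndufa8 and in 2 for Ndufb6. Without the 3 libraries with Ucp1 above 2 FPKM, 19 members were lower and 0 higher. Members that gained a call there included Ndufb9, Ndufa4 and Ndufs4, with adjusted p of 0.0243, 0.0411 and 0.0419 (limma).

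Selpercatinib was compared with vehicle in tumour-bearing mice. No member was called (limma), where 0.282% of all tested genes were called lower and 0.235% higher. An unadjusted p under 0.05 (limma) was found for 5 of 37 members, of which 4 were higher, and for 2057 of 12754 tested genes. With voom on the reads recovered from the FPKM, 0 members were called. Estimates were above 0 for 29 of 37 members, against 49.4% of all tested genes, and the median was 0.09, against -0.0031 for all. Without the 3 libraries with Ucp1 above 2 FPKM the median over the members was -0.06. TL then rests on replicates 4 and 7 alone, its libraries with the lowest member medians relative to NTV (-0.55 and -0.37). The comparison of TL with TV shares the TV libraries with that of TV with NTV. The largest estimate was that of Ndufs1, at 0.48 ± 0.16 (95% interval 0.12 to 0.83, adjusted p = 0.193, limma). Ndufb2 followed at 0.44 (interval 0.12 to 0.76), with TL and TV not overlapping, and then Ndufc2 at 0.33 (0.04 to 0.63), Ndufs4 at 0.30 (-0.02 to 0.62) and Ndufb5 at 0.28 (0.01 to 0.54). The lowest estimates were those of Ndufa4l2, with an interval of -1.18 to -0.25, and Ndufa12, at -0.56 (-1.57 to 0.44). Groups did not overlap for Ndufb2, higher in TL, and for Ndufa4l2 and Ndufa7, lower in TL; among all tested genes 3.36% had TL wholly above TV and 4.05% wholly below. The estimate for Ndufb10 was 0.01, with an interval of -0.32 to 0.34.

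The TL libraries were not alike. The median difference of the 37 members from the NTV mean was 0.03 in TL replicate 5, -0.26 in replicate 1, -0.37 in replicate 7 and -0.55 in replicate 4. TL replicate 5 had 16 members below the NTV mean, while the others had 33 to 35. The TL libraries with the higher medians, 1 and 5, were also those with the higher mitochondrial read share and more RNA of the adipocyte gene Adipoq (51.2 and 66.0 FPKM, against 13.0 and 7.30) and of Mb, the oxygen store myoglobin (1408 and 1556 FPKM, against 319 and 805). The part of these differences in the treatment comparison was not tested. Among NTV libraries, replicate 5 was the lowest, with all 37 members below the NTV mean, and among TV libraries replicate 3 was the lowest at -0.70.

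Treated tumour-bearing muscle was then set against muscle without a tumour. Of the 37 members 4 fell and none rose, where 4.62% of all tested genes were called lower and 4.19% higher. The median was -0.30, against 0.02 over all tested genes, and 34 estimates were below 0, against 47.1% of all tested genes. The 4 were Ndufa4l2, given above, Ndufb10 (-0.68 ± 0.15, adjusted p = 0.02, limma), Ndufs8 (-0.62 ± 0.18, 0.0497) and Ndufb5 (-0.44 ± 0.12, 0.0466). TL lay wholly below NTV for Ndufa4l2, Ndufb10, Ndufs8 and Ndufa8 and wholly above it for none, against 10.1% and 10.8% of all tested genes. Ndufs1 (-0.45, adjusted p = 0.0987) and Ndufc1 (-0.63, 0.0545) were not called by limma. The count of falls was 2 without NTV replicate 2, 3 or 5 or TL replicate 1, it was 1 without NTV replicate 6 or TL replicate 4 or 7, and it was 8 without TL replicate 5. Without NTV replicate 5 and TL replicates 1 and 5 together it was 10, with a median of -0.55. TL then rests on replicates 4 and 7 alone, its libraries with the lowest member medians. Ndufs1 and Ndufc1 were among those that gained a call in that fit (adjusted p = 0.0496 and 0.0349, limma). Ndufa4l2 was the only member called in every setting tried.

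Across the 12 libraries most members varied together, as a description in which shared library differences take part. Pearson's r between log2 levels had a median of 0.78 over 666 pairs of members, with a range of -0.60 to 0.98. Ndufa7 had the lowest r with the mean of the others, -0.16, followed by Ndufa2 (0.37), Ndufa12 (0.43) and Ndufa6 (0.44). Among 10905 tested protein-coding genes outside the list, the profiles most like the mean member profile over the 12 libraries were those of Uqcrq (r = 0.97), Atp5j2 (0.97), Uqcr11 (0.96), Cox7c (0.96) and Atp5h (0.96). Uqcrq and Uqcr11 encode subunits of complex III, Cox7c of complex IV, and Atp5j2 and Atp5h of ATP synthase. The median coefficient of variation of the members was 11.9% in NTV, 16.0% in TV and 17.8% in TL. Over the 37 members, the TV change had a Spearman's rho of 0.11 with the mean level and of -0.11 with gene length.

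Ndufa12 (ENSMUSG00000020022, chr10:94198720-94221443 on the plus strand), an accessory subunit of the N module that resembles the assembly factor Ndufaf2, stood apart, and was singled out after its values were seen. It was at 53.7, 58.5, 14.3 and 22.8 FPKM in NTV, 14.1, 23.2, 56.3 and 21.8 in TV and 13.7, 16.2, 18.1 and 20.2 in TL. NTV replicates 2 and 3 and TV replicate 6 were at 53.7 to 58.5 FPKM and the other 9 libraries at 13.7 to 23.2, with no library between. Reads behind these values numbered 1479 to 1540 in the 3 libraries and 398 to 736 in the 9, so counting error is small beside the gap. The 17 tested genes within 1 Mb had r of -0.52 to 0.55 with it, and the highest r of any tested gene with it was 0.87. The SE of its change was 0.46, against 0.11 to 0.21 for the other members, and it was not called in any comparison.

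Core subunits of the membrane arm are encoded by mitochondrial DNA. In TV 4 of these 7 genes fell and none rose, where 11.5% of all tested genes were called lower. mt-Nd1 was at 13974, 15757, 14635 and 15861 FPKM in NTV, 6568, 10789, 8758 and 8726 in TV and 10501, 8017, 14496 and 7994 in TL. All TV libraries were below NTV, and TL replicate 5 was within the NTV range. The called genes were mt-Nd6 (-0.94), mt-Nd5 (-0.87), mt-Nd1 (-0.81) and mt-Nd2 (-0.75), with adjusted p of 0.0287 to 0.0456 (limma). All 4 calls were lost when TV replicate 3, or any single NTV library, was left out, and with no filter on low values. mt-Nd4 (-0.66), mt-Nd3 (-0.73) and mt-Nd4l (-0.20) were not called, and none of the 7 was called in the other comparisons. Apart from mt-Nd6, which lies on the other strand, these genes share a transcript, and some overlap, so they are not independent. The use of strand in counting is not given in the sources used here, so reads of mt-Nd6, on the other strand from mt-Nd5, cannot be told from antisense reads.

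Ndufab1, the acyl carrier protein of the complex, was at 19.9, 22.5, 18 and 21.4 FPKM in NTV, 9.36, 11.4, 11.2 and 10.9 in TV and 14.6, 10.5, 17.9 and 11.7 in TL. NTV lay above all tumour-bearing libraries, and the gene fell in TV (-0.90 ± 0.15, adjusted p = 0.00226, limma) and TL (-0.59 ± 0.15, 0.032). The call in TL was lost without NTV replicate 2, 3 or 6 or TL replicate 4 or 7, with no filter on low values and with the 2 groups fitted alone, with an adjusted p of up to 0.0863. Its processed pseudogene Ndufab1-ps was listed at 52.8 FPKM in NTV, above the gene itself, so the split of reads between the copies is uncertain.

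Assembly factors build the complex but are not part of the finished enzyme. Of 20 listed, 19 were found and tested, and 10 fell in TV and none rose, with all 19 estimates below 0 and a median of -0.40. Among all tested genes 11.5% were called lower in TV, and 48.2% had an estimate below 0. Ndufaf1, which acts on the proximal membrane arm, was at 28.6, 32.7, 25.8 and 29.8 FPKM in NTV, 13.9, 14.7, 17.4 and 18.1 in TV and 18.9, 16.2, 21.5 and 16.2 in TL. NTV lay above all 8 tumour-bearing libraries, and the change was -0.85 ± 0.12 in TV (adjusted p = 0.00137, limma) and -0.67 in TL (0.00889). The next largest falls in TV were those of Tmem70, which also serves ATP synthase assembly (-0.70), Tmem126b, a partner of Ndufaf1 (-0.66), Ndufaf4, an early factor of the Q module (-0.59), and Timmdc1 (-0.55). In TL against NTV, where 4.62% of all tested genes were called lower, Ndufaf1, Timmdc1 (-0.51), Tmem70 (-0.48) and Dmac2 (-0.40) fell. The last 3 lost the call without NTV replicate 6, TL replicate 4 or TL replicate 7, and once the 3 libraries high in Ucp1 were left out (adjusted p = 0.0635, 0.0842 and 0.0695, limma). Dmac2 also lost it without NTV replicate 3 or 5, and Tmem70 without any single library of either group and with no filter. None was called in TL against TV, where the largest estimates were 0.52 ± 0.13 for Ndufaf4 (adjusted p = 0.0949, limma) and 0.42 ± 0.12 for Tmem126b (0.149). Both were called with an equal total per library, Tmem126b at an adjusted p of 0.0422, and Ndufaf4 also without TL replicate 4 (0.0235).

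Of 14 regulators of mitochondrial genes tested, 4 fell and 2 rose in TV, with a median of -0.09; the share that rose is near the 13.8% of all tested genes called higher, and 11.5% were called lower. Esrra, the oestrogen-related receptor alpha that binds many respiratory gene promoters, was at 54.6, 55.6, 49.4 and 50.7 FPKM in NTV, 21.9, 29.2, 28.9 and 30.7 in TV and 44.6, 26.6, 39.2 and 36.9 in TL. NTV lay above all tumour-bearing libraries, and the gene fell in TV, with a change of -0.92 ± 0.15 (adjusted p = 0.00227, limma), and in TL, with a change from NTV of -0.53 (0.0498). The call in TL was lost when any single NTV library, or TL replicate 4, 5 or 7, was left out, and with a pseudocount of 0.1, no filter, no trend, the 2 groups fitted alone or an equal total without mitochondrial and abundant genes, with an adjusted p of up to 0.108. Its relatives Esrrb (-0.99) and Esrrg (-0.89) and the coactivator Ppargc1b (-0.98) also fell in TV. Nrf1, nuclear respiratory factor 1, rose by 0.48 and the coactivator Pprc1 by 0.42. The Pprc1 call was lost with no filter, with both equal-total scalings, and when the library left out was NTV 3, NTV 6, TV 3 or TV 8. In TL against NTV, 3 regulators fell and 1 rose, where 4.62% of all tested genes were called lower and 4.19% higher. Beside Esrra these were Esrrg (-0.94, adjusted p = 0.0225, limma), Ppargc1b (-0.75, 0.0325) and, higher in TL, Nrf1 (0.40, 0.0474). Each of these 3 calls was lost with no filter and without any 1 of several libraries, NTV replicates 2 and 5 and TL replicate 7 among them. That of Nrf1 was also lost with an equal total, with quantiles, with the stricter filter of a mean of 1 FPKM, with the 2 groups fitted alone and once the 3 libraries high in Ucp1 were left out (0.0951). Ppargc1a, the coactivator PGC-1alpha, was at 7.23, 7.9, 7.47 and 6.44 FPKM in NTV, 16.5, 13.2, 4.91 and 7.4 in TV and 11, 7.56, 6.84 and 6.0 in TL. Its TV libraries spanned more than its NTV libraries, and it was not called (0.37 ± 0.30, adjusted p = 0.4, limma); nor were the ETS factor subunit Gabpa (-0.14) and Tfam, which packages mitochondrial DNA (-0.29, 0.051), although Tfam was called under each of the 4 other scalings.

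**Figure D4:**
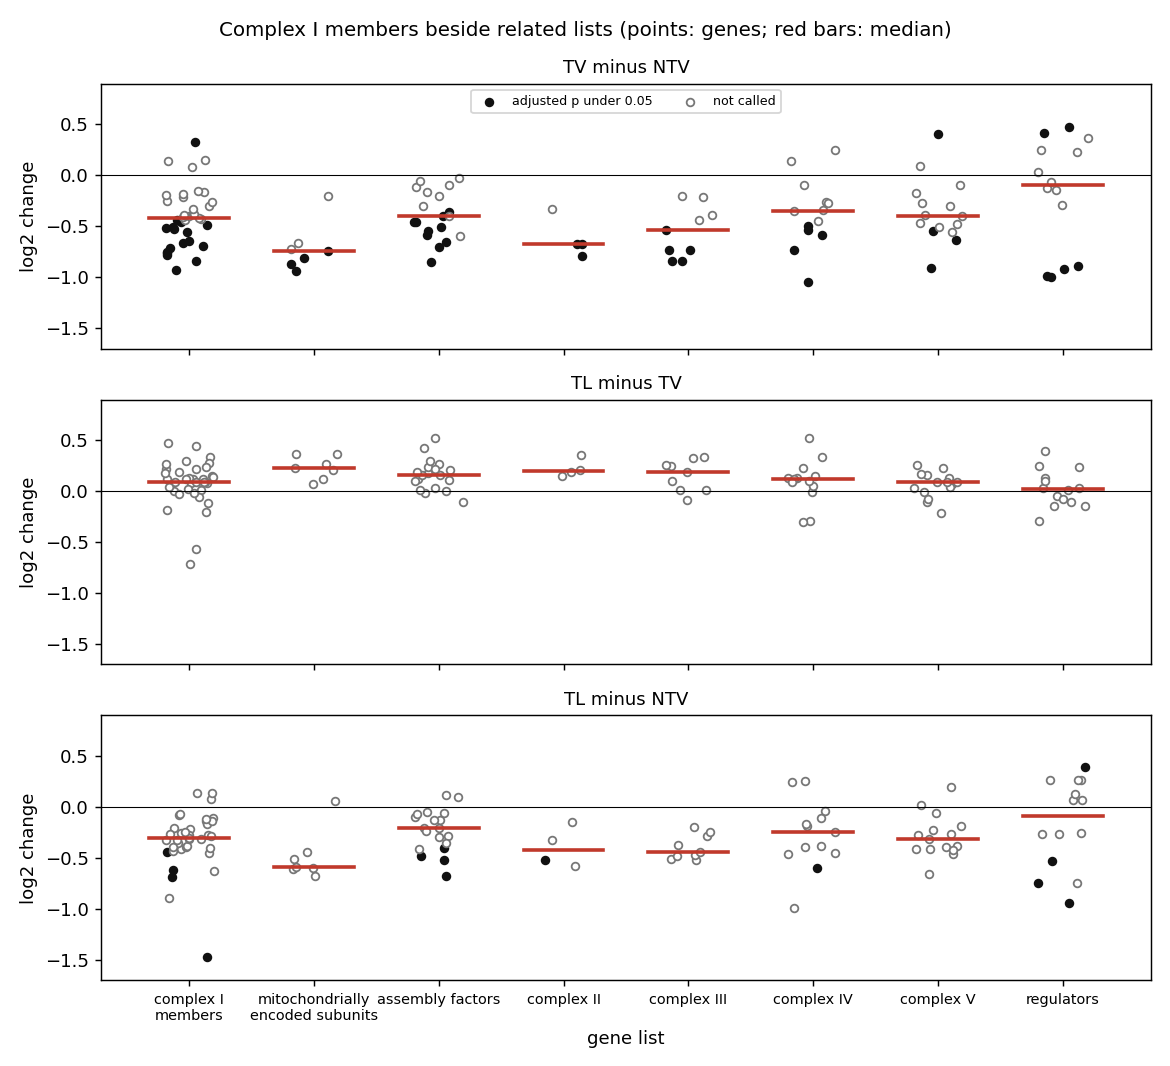
Each column is a gene list and each panel a comparison; points are the log2 changes of single genes (y axis, FPKM + 0.5), filled where the adjusted p is under 0.05, and red bars are medians. In TV minus NTV the medians are -0.42 for complex I members, -0.75 for the mitochondrially encoded subunits and -0.40 for assembly factors, and in TL minus TV no point is filled.

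Nuclear subunits of complexes II to V gave counts near those of complex I. Of 41 genes, 16 fell and 1 rose in TV, with a median of -0.45, where 11.5% of all tested genes were called lower and 13.8% higher. In TL against NTV 2 fell, with a median of -0.37. That share is near the 4.62% of all tested genes called lower there. No difference between these lists and complex I was tested. Other gene groups that moved with the same comparison are given as values, beside the same 11.5% of all tested genes called lower in TV. Mb, an oxidative fibre gene, fell in TV with a change of -1.62, the only call among 10 oxidative and slow-fibre genes. The median of that list was 0.25, with 4 estimates below 0 and 6 above. Myh2 of that list was not called (-1.16, adjusted p = 0.0562, limma), although TV lay wholly below NTV. Summed levels of the list were 2998 to 4237 FPKM in NTV, 954 to 2910 in TV and 1439 to 3538 in TL. Mb and Myh2, with NTV means of 2047 and 753 FPKM, made up most of the NTV sum. Their TV means were 668 and 351 FPKM, so the lower sum in TV does not describe the other genes of the list. Tendon genes fell in TV for 7 of 8 tested, with summed levels of 67.4 to 130.3 FPKM in NTV, 17.6 to 42.9 in TV and 18.8 to 48.3 in TL. The other, Scx, went the other way and was not called, at 1.12 ± 0.38. Its mean was 4.89 FPKM in NTV and 11.2 in TV. Tnmd, which marks tendon cells, was at 6.56, 7.18, 9.19 and 16 FPKM in NTV and 0.212, 0.372, 0.927 and 1.33 in TV, and Kera and Chad were listed at 0 in TL replicate 4. Summed white adipocyte genes were at 534 to 1049 FPKM in NTV, 844 to 1590.1 in TV and 939 to 2136 in TL. All 8 estimates were above 0 in TV, with a median of 1.01, and in TL against NTV, with a median of 1.54. None of the 8 was called in either. Most of the NTV sum came from Car3, at a mean of 606 FPKM. Of 7 brown adipocyte genes 2 fell in TV, Dio2 and Cox7a1, and the median was -0.50. Their summed levels were 665 to 813 FPKM in NTV, 511 to 1063 in TV and 455 to 836 in TL. Most of the NTV sum came from Cox8b (mean 542 FPKM) and Cox7a1 (178), both also muscle subunits of complex IV. The sum did not follow Ucp1: NTV replicate 5, with Ucp1 at 53.4 FPKM, had the lowest sum, Cox8b and Cox7a1 of NTV. Cidea of this list was at 21.1 FPKM there, against 0.471 to 0.820 in the other NTV libraries. It was at 44.9 and 17.99 in TL replicates 1 and 5, against 5.27 and 0.148 in replicates 4 and 7. Elovl3 was at 2.29 FPKM in NTV replicate 5, against 0.147 to 0.275. In TL it was at 12.4 and 1.83, against 0.845 and 0.260. Dio2 was also highest of NTV in replicate 5, and Ppargc1a was not. Of 7 endothelial genes 2 fell in TV; none of 7 macrophage or 5 erythroid genes was called. Their part in the complex I result was not tested.

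Promoters are shown because many members moved together and regulators that bind such promoters were measured. RefSeq windows on GRCm38.p6, of 300 bases from 250 before to 50 after a transcript start, were present for 32 of the 37 members, as 34 windows. Capitals mark matches to a motif on either strand; the motifs were GCGCANGCG for nuclear respiratory factor 1, CCGGAAG for ETS factors such as GABP, AAGGTCA for oestrogen-related receptors and AAGATGGC for YY1. Ndufs8 is the gene with the largest fall in TV among those with a window, Ndufa7 is the gene that rose, shown by the window whose start is nearest the deposited one, and Ndufa8 and Ndufc1 were added after matches were seen, to show the nuclear respiratory factor 1 and YY1 letters in genes that fell.
Ndufs8, chr19:3912725-3913024, minus strand: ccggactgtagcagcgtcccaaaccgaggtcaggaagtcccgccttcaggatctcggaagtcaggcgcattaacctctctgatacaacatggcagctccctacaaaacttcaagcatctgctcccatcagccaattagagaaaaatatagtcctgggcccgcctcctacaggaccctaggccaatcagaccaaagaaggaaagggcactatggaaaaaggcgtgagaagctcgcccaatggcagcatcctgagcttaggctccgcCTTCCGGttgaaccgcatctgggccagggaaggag
Ndufa8, chr2:36049289-36049588, minus strand: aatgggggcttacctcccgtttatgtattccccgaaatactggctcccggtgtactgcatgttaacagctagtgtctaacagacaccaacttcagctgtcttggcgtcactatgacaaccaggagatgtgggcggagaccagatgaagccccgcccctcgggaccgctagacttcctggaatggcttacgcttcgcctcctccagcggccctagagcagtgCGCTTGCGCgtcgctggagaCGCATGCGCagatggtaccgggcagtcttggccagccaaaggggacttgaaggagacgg
Ndufc1, chr3:51408906-51409205, minus strand: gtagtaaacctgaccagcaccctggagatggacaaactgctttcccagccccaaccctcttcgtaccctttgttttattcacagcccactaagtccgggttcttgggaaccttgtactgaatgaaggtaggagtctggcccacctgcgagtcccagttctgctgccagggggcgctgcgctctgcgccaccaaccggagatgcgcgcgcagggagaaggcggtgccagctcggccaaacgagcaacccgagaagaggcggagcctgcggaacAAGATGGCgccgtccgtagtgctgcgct
Ndufa7, chr17:33824322-33824621, plus strand: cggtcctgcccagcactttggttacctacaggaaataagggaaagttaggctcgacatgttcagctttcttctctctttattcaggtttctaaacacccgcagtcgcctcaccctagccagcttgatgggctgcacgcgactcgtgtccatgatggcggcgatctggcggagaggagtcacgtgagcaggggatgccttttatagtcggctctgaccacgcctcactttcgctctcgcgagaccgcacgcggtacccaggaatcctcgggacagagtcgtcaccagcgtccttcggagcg

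The Ndufs8 window holds the ETS letters on the opposite strand, starting at base 16 of the transcript. Ndufa8 holds the nuclear respiratory factor 1 letters in 2 places on the opposite strand, beginning 29 and 9 bases before the start. Ndufc1 holds the YY1 letters from base 23 of the transcript, and the Ndufa7 window holds none of the 4 motifs.

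Motif letters occurred in member windows and in all 32851 windows of the same length as follows. The nuclear respiratory factor 1 motif was in 26.5% of member windows and 6.25% of all windows. It lay at Ndufa8, Ndufa11 and Ndufb10, which fell in TV, and at Ndufa5, Ndufa6, Ndufb4, Ndufs5 and Ndufs6, which were not called. The YY1 motif was in 20.6% against 2.75%, at Ndufc1, Ndufa9 and Ndufb8, which fell, and at Ndufa3, Ndufs4, Ndufs6 and Ndufs7, which were not called. The ETS motif was in 11.8% against 8.86%, at Ndufs8 and Ndufb6, which fell, and at Ndufs3 and Ndufb7, which were not called. The oestrogen-related receptor motif was in 8.82% against 4.72%, at Ndufb2, which fell, and at Ndufb4 and Ndufs5, which were not called. Each motif therefore lay both at members that fell and at members that were not called.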

How the data were processed

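Muscle RNA of 12 mice was sequenced as poly(A) mRNA with random hexamer priming, per the labels' protocols. The authors deposited 1 table of FPKM values for all 12 libraries. Per the submitters' processing notes, mm10 was the build and HISAT2 2.05, featureCounts 1.5.0-p3 and DESeq2 were used, without the role of each; the annotation release and the use of strand are not given in the sources used here. FPKM times gene length gave whole reads for 100% of values (tolerance 0.1), and the scale between libraries equalled median-of-ratios factors to a relative difference of 8.67e-11, so values are relative to most genes and not to each library's total. The lowest chi-square per degree of freedom between 2 libraries of a group was 17.9 (18 pairs), so none was a repeat of another.

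Changes were tested with limma 3.58.1 (R 4.3.3) on log2(FPKM + 0.5), which understates changes of low genes, with 1 mean per group, all 12 libraries and a mean-variance trend, over genes whose mean FPKM reached 0.5. The fit was tested on simulated data first. Members, lists and motifs were chosen with earlier results of these data known. Counts cover all 37 members, of which 1 is not reported singly here; values per library are given for core genes, for the largest called changes, for Ndufa4 and Ndufa4l2, and for Ndufa12, which was added after its values were seen. From the other lists up to 5 called genes per direction are named. Of the 37 members 13 overlap another tested gene, such as Ndufb5 with Mrpl47 and Ndufa13 with Yjefn3, and reads there may be split or shared. Alternatives were other pseudocounts, filters and scalings, no trend, only 2 groups, the replicate number as a block, each library left out and, added after seeing the data, voom on recovered reads and leaving out the libraries with Ucp1 above 2 FPKM. Figures were drawn with matplotlib 3.10.9.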

Additional observations from a re-analysis of the deposited data

Results flagged for a closer look

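Each member was examined in each group of 4 libraries for a highest or lowest value whose gap to the next, as a share of the group's range, exceeds Dixon's 95% critical value, which chance alone does in about 1 of 20 groups; 3 of 111 groups showed one. Ndufs8 was at 81.0 FPKM in TV replicate 3, against 107 to 110.2 in the other TV libraries. Ndufa1 was at 137 FPKM in NTV replicate 5, against 158 to 162 in the other NTV libraries. Ndufa4l2 was at 1.47 FPKM in TL replicate 4, against 3.02 to 3.19 in the other TL libraries. These libraries also had the lowest median of the 37 members in their groups, at -0.70 for TV replicate 3, -0.22 for NTV replicate 5 and -0.55 for TL replicate 4. Whether a property of the library underlies these values was not tested.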

How the results depend on the processing

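The number of members called lower in TV against NTV, 16, became 10 with no filter on low values and 25 with an equal total per library, and ranged from 8 to 20 with 1 library left out. The 1 called higher became 0 with no filter, with each of the other scalings (an equal total, an equal total without mitochondrial genes and the 50 most abundant, median-of-ratios on the tested genes, quantiles), with the 2 groups fitted alone and once the 3 libraries with Ucp1 over 2 FPKM were left out, and was 0 to 1 with 1 library left out. The median there ranged from -0.49 to -0.35 with 1 library left out. For TL against NTV the 4 called lower became 2 with no filter, 2 with no trend, 2 with only the 2 groups compared, 7 with quantiles and 10 without the Ucp1 libraries, and ranged from 1 to 8 with 1 library left out; the median ranged from -0.41 to -0.21 and was -0.55 without the Ucp1 libraries. For TL against TV 0 members were called with any library left out, and the median ranged from 0.0071 to 0.19; without the Ucp1 libraries it reversed to -0.055, and the estimate for Ndufb10 reversed to -0.23. With 1 library left out the estimate for Ndufb10 in that comparison ranged from -0.095 to 0.097. Without the Ucp1 libraries, TL consisted of replicates 4 and 7 alone, those with its lowest member medians. In TV against NTV the uncalled estimate for Ndufa3 was -0.019 with an equal total, -0.0295 with an equal total without mitochondrial and abundant genes, -0.044 with quantiles, -0.016 without the Ucp1 libraries and -0.046 to 0.177 with 1 library left out, and that for mt-Nd4l was -0.88 to 0.33 with 1 library left out. The causes were not tested. The replicate numbers were treated as names only. Correlations of deviations were 0.014 to 0.133 for same-numbered pairs. Differently numbered pairs were not examined, so these values cannot show whether the libraries are paired. With the replicate number as a block 16 members were lower and 1 higher in TV, 3 were lower in TL against NTV and 0 were called in TL against TV. An equal total moved the median of all tested genes by 0.11 in TL against TV and by -0.09 in TV against NTV, the furthest of the 4 scalings in the former. Depth limits mainly Ndufa4l2, with 28 to 179 reads per library.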
